A study of Homo sapiens with 6 samples.

Results

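CAPG and its gelsolin-repeat relatives were followed in HCT116, an established human colorectal cancer cell line. The 8 genes were chosen by symbol (CAPG, GSN, SCIN, AVIL, VIL1, VILL, SVIL and FLII), and each matched a single row among the 60643 genes of the deposited table. All libraries came from cells transfected with an inducible short hairpin RNA (shRNA) against CAPG, which the sample descriptions call shCAPG-2. In 3 libraries the cells were untreated, and the labels give their genotype as WT. In the other 3, doxycycline had induced the hairpin for 3 days at 100 ng/µl (unit as labelled), and the genotype is given as CAPG Knockdown. The untreated cells therefore carry the hairpin construct too. Libraries given doxycycline without this hairpin were not analysed here, so the drug and the hairpin cannot be told apart. Whether the transfected cells were a clone or a pool is not stated in the labels. The labels also do not say whether replicates were grown separately, so the spread behind each p-value may be technical.

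Gelsolin-family proteins are built from copies of an actin-binding domain, the gelsolin repeat. Many of them bind the fast-growing (barbed) end of actin filaments. Calcium switches most of them on, and the membrane lipid PIP2 releases them from the filament. CAPG caps filament ends without cutting the filament. Gelsolin (GSN) and adseverin (SCIN) also sever filaments. Villin (VIL1) bundles filaments in the brush border of intestinal cells, and advillin (AVIL), the villin-like protein VILL and supervillin (SVIL) share the villin headpiece, a further actin-binding domain. Flightless I (FLII) joins gelsolin repeats to leucine-rich repeats.

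Because the hairpin acts on a stretch of CAPG mRNA, the longest stretches of mRNA that CAPG shares letter for letter with its relatives were read from the GENCODE 29 transcripts (GRCh38). The hairpin's own sequence is not in the sources used here, so these stretches show only what the mRNAs have in common. The longest was a run of 24 bases shared with GSN, inside the coding sequence of each gene and in the same reading frame. In CAPG it starts at base 490 of the coding sequence, counted from 1 at the start codon. The longest runs that the coding sequences of SCIN (12 bases), SVIL (13 bases) and FLII (12 bases) share with that of CAPG fall at the same place. These windows of 42 coding bases are shown to compare the 5 genes there. Capitals in the CAPG line mark the run shared with GSN, and capitals in the other lines mark bases equal to CAPG:
CAPG: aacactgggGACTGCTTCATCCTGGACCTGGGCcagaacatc
GSN: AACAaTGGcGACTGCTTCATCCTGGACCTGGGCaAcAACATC
SCIN: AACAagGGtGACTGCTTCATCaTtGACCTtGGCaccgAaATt
SVIL: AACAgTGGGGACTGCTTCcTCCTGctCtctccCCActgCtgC
FLII: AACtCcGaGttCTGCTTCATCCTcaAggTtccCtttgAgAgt
Of the 42 bases, GSN has 38 equal to CAPG, SCIN 30, SVIL 28 and FLII 23. The CAPG window spans exons 5 and 6 (chr2:85399280-85401200, minus strand, with an intron inside) and the GSN window exons 4 and 5 (chr9:121310810-121312344, plus strand, likewise).

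VIL1 and AVIL come closest to CAPG at another place, further towards the start codon. VIL1 shares a run of 19 bases and AVIL a run of 14 bases there. In these windows, capitals in the CAPG line mark the run shared with VIL1, and in the other lines bases equal to CAPG:
CAPG: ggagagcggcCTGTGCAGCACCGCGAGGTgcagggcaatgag
VIL1: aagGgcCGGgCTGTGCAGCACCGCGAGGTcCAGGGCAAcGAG
AVIL: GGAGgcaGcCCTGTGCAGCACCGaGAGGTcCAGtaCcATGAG
VIL1 has 34 and AVIL 33 of the 42 bases equal to CAPG. The CAPG window lies in exon 4 (chr2:85401574-85401615, minus strand), the VIL1 window in exon 4 of its gene (chr2:218425732-218425773, plus strand) and the AVIL window in exon 3 (chr12:57813265-57813306, minus strand). VILL shared at most 12 bases of coding sequence with CAPG. Across all annotated transcripts, 10 genes other than CAPG share a run of at least 19 bases with a CAPG transcript, and GSN and VIL1 are the 2 relatives among them. Only 3 genes (GSN, VIL1 and FRMD1) do so with the CAPG coding sequence. Of the 10 genes, 6 were expressed well enough to be tested, and 0 passed the limma test in either direction (0 at an unadjusted p under 0.05). Across all tested genes 8.46% were called and 27.9% had such an unadjusted p, and 6 genes are too few to tell 0 from these shares. GSN, with the longest run, is described with its values further on.

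Values are FPKM, fragments scaled per transcript length and library size, so levels can be compared between genes. Depth was not given. From the lowest values of single-exon genes, where 1 fragment gives a fixed step, it was estimated at 14200000 to 17900000 fragments per library, lowest in untreated replicate 3. Between 14257 and 14526 genes reached 1 FPKM per library. Summed FPKM lay between 521832 and 536037 in 5 libraries and reached 586911 in replicate 3 with doxycycline. The epithelial markers EPCAM, KRT8, KRT18, KRT19 and CDH1 were at 31.1 FPKM or more in the mean of untreated libraries, but the intestinal markers CDX1 (0 in all libraries) and CDH17 (0.0433 FPKM) were absent or nearly so, and CDX2 was at 4.52 FPKM. Of the 15 markers of fibroblasts, leukocytes and endothelium, only COL1A1 (9.06 FPKM) and CD68 (3.94 FPKM) passed the filter, while PTPRC, CD3E, DCN and CDH5 had group means below 0.1 FPKM. EPCAM was higher with doxycycline (190 to 241 FPKM, limma adjusted p = 0.0401) and CD68 lower (3.94 to 2.01 FPKM, adjusted p = 0.0167). The 6 leukocyte markers summed to 4.40 to 5.17 FPKM in untreated and 2.59 to 2.77 FPKM in treated libraries, and the part of these shifts in the results given here was not tested.

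CAPG (ENSG00000042493, chromosome 2, 85394753 to 85418432, minus strand) was the most abundant family member without doxycycline and fell with it. It stood at 61.1, 56.9 and 53.7 FPKM in untreated replicates 1, 2 and 3 and at 8.18, 8.03 and 9.97 FPKM in replicates 1, 2 and 3 with doxycycline. Every treated library lay far below every untreated library, and the spread within each group was small beside the gap. The means were 57.2 ± 3.75 and 8.73 ± 1.08 FPKM (SD, n = 3 each), so 15.3% of the level was left. On the log2(FPKM + 1) scale the change was -2.59 (SE 0.10, 95% interval -2.81 to -2.36), the largest decrease of the 14475 genes tested with limma (adjusted p = 7.24e-06). The exact two-sided permutation p was 0.1, the smallest that 3 against 3 libraries can give. In a bulk sample, fewer cells with the transcript and less transcript per cell cannot be told apart.

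The fall moved CAPG from the 90.1 to the 45.9 percentile of tested genes by mean level. The remaining transcript was still well above the detection limit. On the 1442-base principal transcript, the treated levels correspond to 208 to 256 fragments per library, and the untreated ones to 1099 to 1568. Counting error alone would give a coefficient of variation of 6.25% to 6.94% in treated libraries, against 12.4% observed, and of 2.53% to 3.02% in untreated ones, against 6.55% observed. Such figures cover counting error only. The nearest tested genes on either side of CAPG, ELMOD3 at 3001 bases and MAT2A at 120736 bases, did not pass the limma test. ELMOD3 was at 5.96 ± 0.679 and 5.88 ± 0.934 FPKM (adjusted p = 0.932), and MAT2A, which encodes a methionine adenosyltransferase subunit, at 142 ± 5.55 and 153 ± 6.96 FPKM (adjusted p = 0.373).

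**Figure D1:**
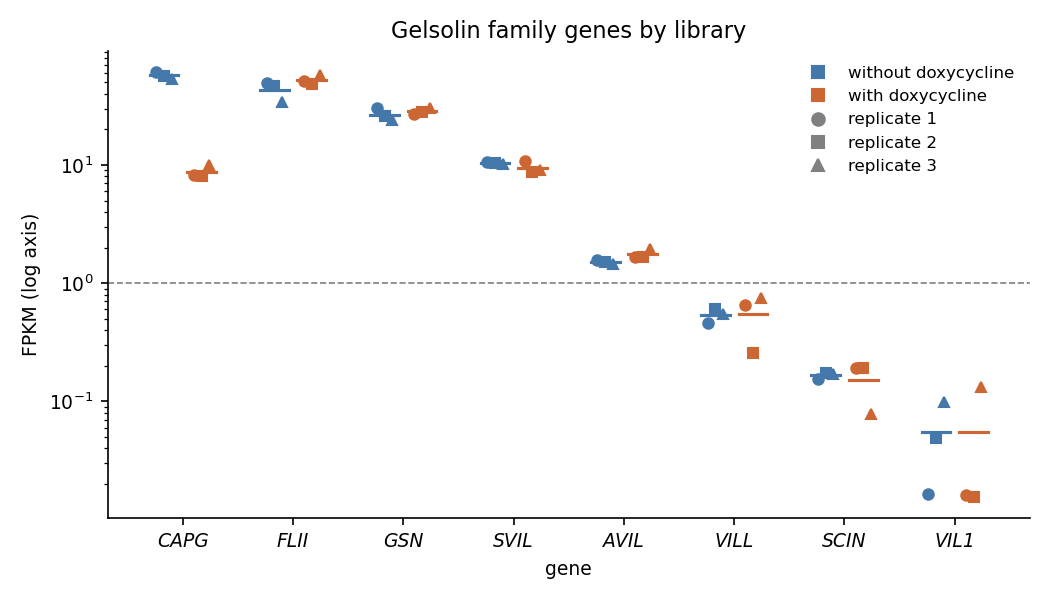
FPKM of the 8 gelsolin family genes (log axis) in 3 libraries without and 3 with doxycycline. Points are libraries, marked by replicate, bars are group means, and the dashed line is the 1 FPKM filter. CAPG falls from 57.2 to 8.73 FPKM, while the groups of GSN, SVIL and FLII overlap and VILL, SCIN and VIL1 lie below 1 FPKM.

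The relatives showed no change that passed the test. Of the 7, 4 reached 1 FPKM in at least 3 libraries and were tested (FLII, GSN, SVIL and AVIL). Of these 0 rose and 0 fell by limma, and 0 had an unadjusted p under 0.05. Across all tested genes 3.69% were called higher and 4.77% lower (8.46% in all), and 27.9% had an unadjusted p under 0.05. The median log2 change was 0.12 over the 4 relatives and 0.00 over all tested genes. In CAPG and AVIL, 2 of the 5 tested members, the groups did not overlap, as in 34.5% of all tested genes.

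GSN (ENSG00000148180, chromosome 9, 121207794 to 121332843, plus strand), which shares the longest run with CAPG, encodes a severing and capping protein. It was at 30.1, 26.1 and 23.8 FPKM in untreated replicates 1, 2 and 3 and at 27.0, 27.8 and 30.4 FPKM in treated replicates 1, 2 and 3. The groups overlapped, with the highest and the lowest untreated library enclosing 2 of the 3 treated ones. The means were 26.7 ± 3.19 and 28.4 ± 1.75 FPKM (SD, n = 3 each), and the log2 change of 0.09 had a 95% interval of -0.13 to 0.32 (limma adjusted p = 0.589). The interval runs from 0.912-fold to 1.25-fold on the FPKM + 1 scale. The log2 change was 0.18 without untreated replicate 1, 0.02 without untreated replicate 3, 0.05 without treated replicate 3 and 0.04 with equal totals, and was called in none of these fits. SCIN, also a severing protein, was close to silent at 0.154, 0.175 and 0.172 FPKM in untreated replicates 1, 2 and 3 and 0.190, 0.190 and 0.0780 FPKM in treated replicates 1, 2 and 3. Its groups overlapped (exact permutation p = 1), and it was below the filter.

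FLII (ENSG00000177731, chromosome 17, 18244815 to 18258738, minus strand) is a gelsolin-repeat protein also known as a transcriptional coactivator. Its values were 49.4, 46.6 and 33.9 FPKM in untreated replicates 1, 2 and 3 and 51.3, 48.8 and 57.9 FPKM in treated replicates 1, 2 and 3. Untreated replicate 3, the library of lowest depth, was low, and otherwise the groups overlapped narrowly. The means were 43.3 ± 8.27 and 52.7 ± 4.71 FPKM (SD, n = 3 each). The log2 change of 0.29 (SE 0.14, 95% interval -0.02 to 0.60) did not pass the limma test (adjusted p = 0.2), and without untreated replicate 3 it was 0.13 (adjusted p = 0.442, and 0.142 to 0.442 over the fits lacking 1 library). Its partners LRRFIP1 and LRRFIP2, which bind the leucine-rich repeats, were not called either. LRRFIP1 was at 51.3 ± 1.88 and 51.7 ± 5.58 FPKM (adjusted p = 0.968) and LRRFIP2 at 14.8 ± 0.729 and 18.8 ± 3.23 FPKM (adjusted p = 0.133).

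SVIL (ENSG00000197321, chromosome 10, 29457338 to 29736959, minus strand) encodes supervillin, which links actin and myosin II to the membrane. It was at 10.5, 10.3 and 10.2 FPKM in untreated replicates 1, 2 and 3 and at 10.7, 8.73 and 9.06 FPKM in treated replicates 1, 2 and 3. Treated replicate 1 was the highest of all 6 libraries and the other treated libraries were the lowest, so the groups overlapped. The log2 change was -0.11 (95% interval -0.34 to 0.11, limma adjusted p = 0.504). It was -0.19 without treated replicate 1 and -0.06 without treated replicate 2, not called in either fit.

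AVIL (ENSG00000135407, chromosome 12, 57797376 to 57818704, minus strand), best known from sensory neurons, was just above the filter. Its values were 1.56, 1.51 and 1.46 FPKM in untreated replicates 1, 2 and 3 and 1.67, 1.68 and 1.95 FPKM in treated replicates 1, 2 and 3. All treated libraries were above all untreated ones, and the exact permutation p was 0.1. The log2 change of 0.14 (95% interval -0.12 to 0.40) did not pass the limma test (adjusted p = 0.478), and was 0.09 without treated replicate 3 and 0.21 with a pseudocount of 0.1. AVIL levels correspond to 60 to 100 fragments per library, so counting error alone would give a coefficient of variation of about 10% to 12.9%. The observed ones were smaller, at 3.25% in untreated and 9.0% in treated libraries. The reason was not tested.

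VIL1 and VILL were below the filter. VIL1 (ENSG00000127831, chromosome 2, 218419121 to 218453295, plus strand), which shares 19 coding bases with CAPG, was at 0.0166, 0.0488 and 0.0988 FPKM in untreated replicates 1, 2 and 3 and at 0.0162, 0.0156 and 0.133 FPKM in treated replicates 1, 2 and 3. On its principal transcript 3 of these libraries were under 3 fragments, so a decrease or a small rise of VIL1 was not detectable at this depth. VIL1 stayed at 0.133 FPKM or less in every library. VILL was at 0.457, 0.610 and 0.547 FPKM in untreated replicates 1, 2 and 3 and at 0.649, 0.256 and 0.743 FPKM in treated replicates 1, 2 and 3. The treated VILL values enclosed the untreated ones (exact permutation p = 1).

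**Figure D2:**
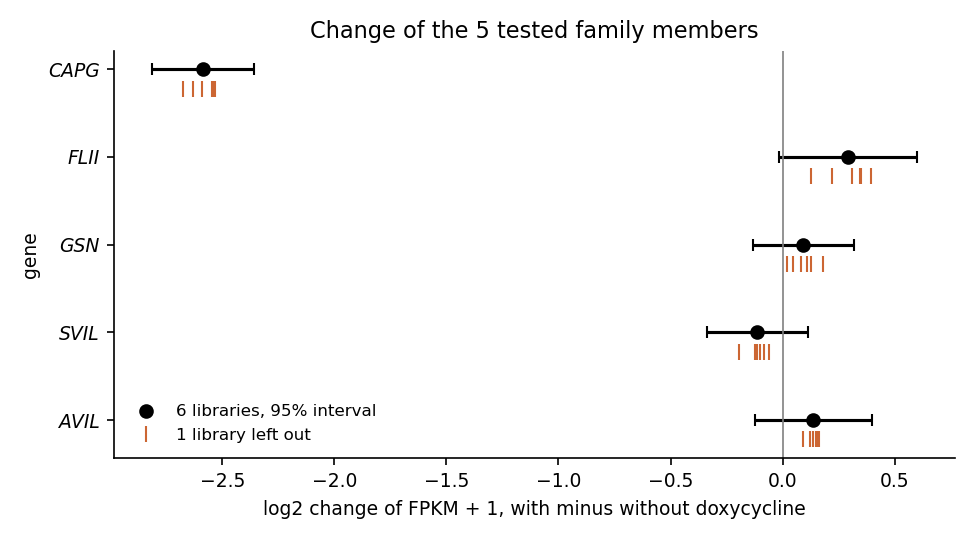
Log2 change of FPKM + 1 (with minus without doxycycline) of the 5 tested family members, with 95% limma intervals (black) and the value when each library in turn is left out (orange ticks). The CAPG interval runs from -2.81 to -2.36, and the intervals of FLII, GSN, SVIL and AVIL include 0.

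The make-up of the family by transcript level was different in treated libraries, as follows from the fall of CAPG. In all 3 untreated libraries the order was CAPG, FLII, GSN, SVIL, AVIL, VILL, SCIN and VIL1. CAPG was 1.22 to 1.58 times FLII within these libraries, and the untreated ranges of neighbours in this order did not overlap. In treated libraries FLII was highest, followed by GSN, and CAPG and SVIL were level. CAPG was at 0.761, 0.920 and 1.10 times SVIL in treated replicates 1, 2 and 3, so their order was not the same in every library. SCIN and VIL1 changed places in treated replicate 3.

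Summed over the 8 genes, the family stood at 153, 142 and 124 FPKM in untreated replicates 1, 2 and 3 and at 99.7, 95.5 and 110 FPKM in treated replicates 1, 2 and 3. CAPG made up 41.1% ± 1.97 of that sum without doxycycline and 8.55% ± 0.445 with it (SD, n = 3 each). FLII made up 30.8% ± 2.97 and 51.7% ± 0.764, and GSN 19.1% ± 0.666 and 27.9% ± 1.07. The 7 relatives without CAPG summed to 82.5 ± 11.3 and 93.1 ± 6.49 FPKM, with overlapping ranges of 70.1 to 92.2 and 87.5 to 100.2 FPKM. The means of that sum differed by less than the SD of the untreated libraries.

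**Figure D3:**
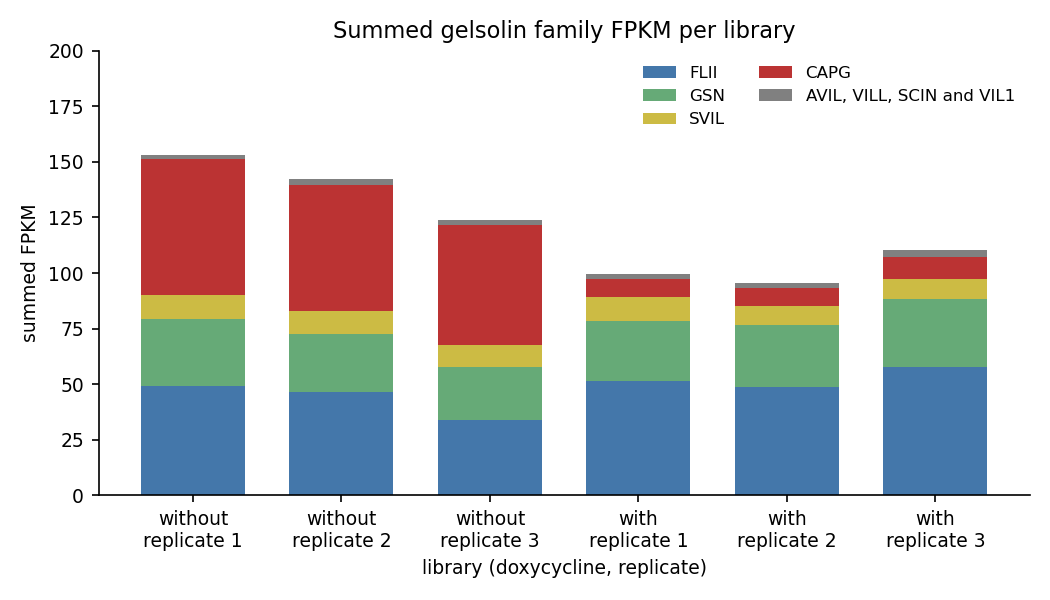
Summed FPKM of the gelsolin family in each library, stacked by gene, without and with doxycycline (3 replicates each, no error bars because each bar is 1 library). The CAPG segment shrinks from 41.1% of the sum on average to 8.55%, and the sum of the other 7 genes is 82.5 without and 93.1 with doxycycline.

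Several members share their locus with other genes, and strandedness of the counting is not given, so reads over shared exons cannot be assigned with certainty. TSFM, a mitochondrial translation factor gene on the opposite strand of AVIL, shares 303 exonic bases with it and was far more abundant, at 28.6 ± 2.32 and 30.5 ± 3.02 FPKM. USP37, which encodes a deubiquitinase, shares 3045 exonic bases with VIL1 and was at 8.82 ± 0.913 and 7.54 ± 1.08 FPKM. LLGL1, a cell polarity gene that overlaps FLII by 40 exonic bases on the other strand, was at 12.6 ± 1.92 and 9.14 ± 0.540 FPKM (limma adjusted p = 0.0571). It passed the threshold when libraries were scaled to equal totals (0.0366) or by median ratios (0.0469) and without untreated replicate 3 (0.0452), and over all alternatives its adjusted p ran from 0.0366 to 0.177.

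SVIL-AS1, transcribed from the strand opposite SVIL with 353 exonic bases in common, had 19.4, 30.4 and 25.3 FPKM in untreated replicates 1, 2 and 3 and 14.4, 20.3 and 12.7 FPKM in treated replicates 1, 2 and 3. The ranges overlapped in treated replicate 2 and untreated replicate 1, and the log2 change of -0.64 did not pass the limma test (adjusted p = 0.0735), except without treated replicate 2 (0.0391, and 0.0391 to 0.2 over the fits lacking 1 library). CKS1BP2, a processed pseudogene inside the SVIL locus, was at 33.4 ± 2.44 and 26.9 ± 5.15 FPKM (adjusted p = 0.144, and 0.0331 to 0.352 over the same fits, the lowest without treated replicate 3). RAB14, a trafficking GTPase gene whose exons do not overlap those of GSN, was at 25.7 ± 2.26 and 30.7 ± 1.92 FPKM (adjusted p = 0.115).

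The genes of 6 other lists, related to actin or to PIP2, were called at about the share of all genes. The 6 lists held 104 genes, of which 89 were tested, and 2 rose and 6 fell by limma, 8.99% against 8.46% of all tested genes. The median log2 change was -0.02 over the lists and 0.00 over all genes. Among 22 tested genes that cap filament ends or regulate capping, 2 rose and 1 fell. EPS8L1, a relative of the capping protein EPS8, had 9.83, 8.22 and 8.68 FPKM in untreated replicates 1, 2 and 3 and 17.1, 17.5 and 16.2 FPKM in treated replicates 1, 2 and 3. Its groups were widely apart, with a log2 change of 0.86 (SE 0.09, limma adjusted p = 0.00228). SH3KBP1, an adaptor that binds capping protein, rose from 15.6 ± 0.583 to 20.7 ± 0.723 FPKM (log2 0.38). The pointed-end capping gene TMOD2 fell from 3.27 ± 0.368 to 1.86 ± 0.237 FPKM (log2 -0.58).

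The heterodimeric capping protein, which like CAPG caps barbed ends, did not pass the test. CAPZA1 was at 107 ± 9.60 and 128 ± 6.0 FPKM (limma adjusted p = 0.0906), CAPZA2 at 53.6 ± 1.92 and 58.0 ± 2.81 FPKM (0.373) and CAPZB at 55.1 ± 1.83 and 62.5 ± 5.24 FPKM (0.207). In 34.5% of all tested genes the groups did not overlap. This held for CAPZA1, CAPZA2 and CAPZB, where every treated library lay above every untreated one. These genes and EPS8 (24.6 ± 1.48 and 21.7 ± 2.08 FPKM, adjusted p = 0.272) were chosen for naming after their values were seen.

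In the remaining lists the called genes were lower with doxycycline, except under equal totals. Across all tested genes 4.77% were called lower and 8.46% in either direction, and 27.9% had an unadjusted limma p under 0.05. No list was tested against these shares. Of 22 tested severing and depolymerisation genes 1 fell, the coronin gene CORO1A (7.51 ± 0.609 to 4.97 ± 0.588 FPKM, log2 -0.51). With equal totals PDXP was called lower as well and the cofilin gene CFL1 higher (log2 0.24, limma adjusted p = 0.0426), and with median ratios SSH1 and PDXP were called lower as well. Of 8 tested actins and monomer-binding genes 2 fell, the thymosin gene TMSB15A (47.6 ± 2.09 to 31.8 ± 7.19 FPKM, log2 -0.59), which can share reads with its near-identical copy TMSB15B and is uncertain, and the profilin gene PFN2 (71.7 ± 1.58 to 57.2 ± 2.78 FPKM, log2 -0.32). Of 12 tested bundling and brush border genes 1 fell, the espin gene ESPN (16.9 ± 0.180 to 13.0 ± 0.764 FPKM, log2 -0.36). Of 19 tested genes that make or consume PIP2 1 fell, the phospholipase C gene PLCB3 (20.6 ± 1.5 to 15.1 ± 1.18 FPKM, log2 -0.42). Among 6 villin headpiece genes and FLII partners 0 passed by limma, with 1 at an unadjusted p under 0.05. The limma adjusted p of these calls and of SH3KBP1 and TMOD2 lay between 0.0243 and 0.0341, and each of these 7 calls was lost in 4 or 5 of the 6 fits lacking 1 library (highest adjusted p 0.13). EPS8L1 was called in all 6 such fits (adjusted p 0.0072 to 0.0164).

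**Figure D4:**
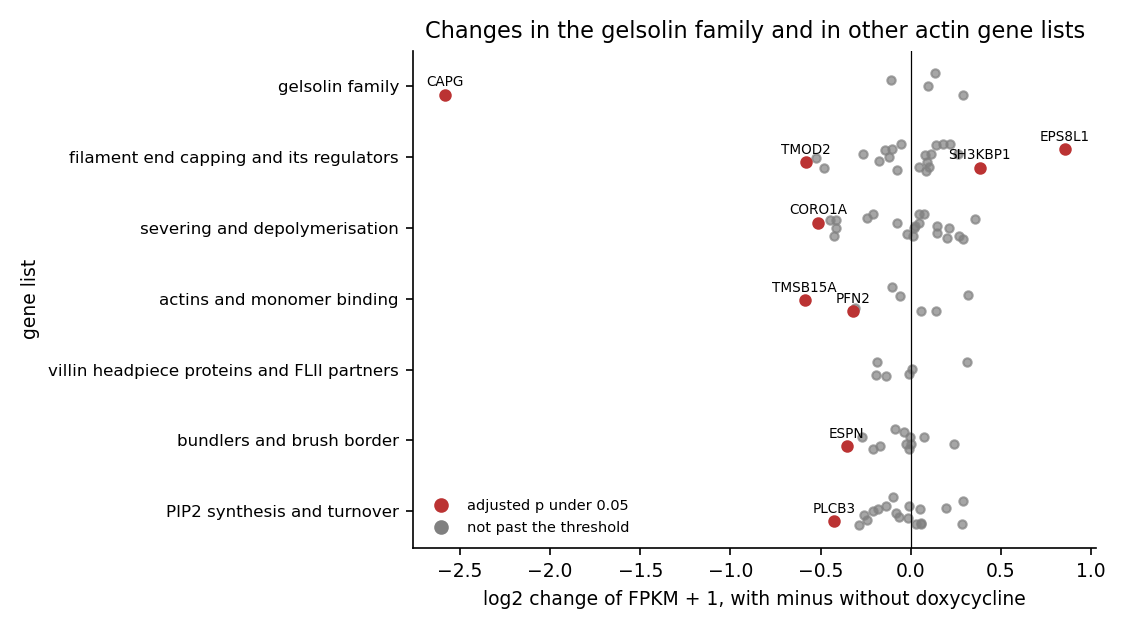
Log2 change of FPKM + 1 (with minus without doxycycline) of each tested gene of the gelsolin family and of 6 lists of other actin-related genes, 1 point per gene, spread vertically for legibility. Red points passed an adjusted p of 0.05. CAPG lies at -2.59, and among the other lists the called genes lie between -0.59 (TMSB15A) and 0.86 (EPS8L1).

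Likeness to the CAPG profile was measured as the root mean square difference over the 6 libraries between log2(FPKM + 1) values, each relative to the gene's untreated mean. The nearest of all tested genes were RAB38 (0.70), DHRS2 (0.80), TCOF1 (0.83), the clone-named AL669831.3 (0.89) and IMMP2L (0.96). On this log2 scale all 5 had smaller decreases than CAPG. In FPKM, AL669831.3 was left at 14.3% of its untreated mean, against 15.3% for CAPG, but its untreated libraries ranged from 3.20 to 25.6 FPKM and it did not pass the limma test (adjusted p = 0.172). The tested relatives lay between 1.76 for SVIL (rank 4656 among all other tested genes) and 2.04 for FLII (rank 12963). Because CAPG itself fell, any gene without a change is far from it on this measure, so these distances are no trait of the relatives.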

How the data were processed

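RNA sequencing libraries of untreated cells (3) and cells with doxycycline (3) were compared. The deposited FPKM values were scaled by the authors per gene length and library size; the header names no unit, and this was inferred because low values of single-exon genes formed steps inverse to gene length. The submitters' processing notes list Cufflinks, RSEM, kallisto, STAR, BWA and Bowtie, without roles, and the build hg19. The loci instead match GRCh38 with 0-based starts (39321 of 39331 identifiers as in GENCODE 29) and are printed 1-based.

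The 14475 genes that reached 1 FPKM in 3 or more libraries were fitted with limma 3.58.1 (R 4.3.3; trended, robust) on log2(FPKM + 1), two-sided, Benjamini-Hochberg over all, threshold 0.05. This scale understates changes of low genes. The fit was tested on simulated data whose planted changes were larger than those of the relatives and of the called actin list genes. That simulation therefore does not measure power at these smaller sizes. Single genes were also compared by exact two-sided permutation tests. Depth came from 3889 single-exon genes over 1000 bases. Fragments per member assume the GENCODE principal transcript. Shared runs were searched in all GENCODE 29 transcripts, sense strand.

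The members and lists were chosen with earlier results of these data known. Named genes were the members, overlapping genes with a mean of 1 FPKM, the tested neighbours of CAPG, list members called (otherwise the 2 with the smallest p) and the 5 profiles most like CAPG. Others (LRRFIP1, FRMD1, marker genes and those stated in the text) were named after their values were seen. Protein sequences were not used here. Alternatives were a pseudocount of 0.1, other filters, equal totals, median ratios, a replicate block, limma without trend, and leaving out each library.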

Additional observations from a re-analysis of the deposited data

How the results depend on the processing

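The CAPG decrease kept its direction and its call in all 13 alternatives (log2 change -2.70 to -2.53, highest adjusted p 0.00395 without a filter), and 0 relatives were called in any of them. FLII, GSN, SVIL and AVIL kept their direction in each. Calls elsewhere depended on the fit. The 8 called genes of the actin lists became 1 without a filter on low values, 5 with a filter at 0.1 FPKM and 1 to 8 when a library was left out, but 10 with equal totals and 10 with median ratios. Leaving out untreated replicate 1, 2 or 3 gave 2, 1 or 3 called genes, and leaving out treated replicate 1, 2 or 3 gave 1, 2 or 8. The 1225 genes called in all became 153 without a filter, 773 with the filter at 0.1 FPKM and 223 to 1000 when a library was left out, but 1341 with equal totals and 1382 with median ratios. More genes are tested under the looser filters. Fewer samples remain in the fits that leave out a library, while equal totals and median ratios keep every library.

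With the replicate number as a block, 1 actin list gene and 211 genes in all were called. Same-numbered libraries did not deviate together (correlations of -0.04, 0.01 and -0.02 across genes). Whether they were grown or handled together is not stated in the labels, and these correlations cannot show it. No library correlated best with its own number. Depth limits VIL1, SCIN and VILL, which rest on few fragments.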
